A study of Mus musculus with 16 samples.

Results

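The regions described here are stretches of mouse chromatin that were open in CD8+ T cells taken from melanomas and not detected as open in the same kind of cells before transfer. They were found by merging the ATAC-seq peaks of 12 libraries wherever peaks overlapped by at least 1 bp, which gave 94635 merged regions. A merged region was kept if at least 7 of the 8 tumour libraries had a peak there and none of the 4 in vitro libraries did, which left 583 regions, called tumour-gained below. Of these, 164 had a peak in all 8 tumour libraries and 419 in 7 of them. The regions were chosen by the presence and absence of peaks in these 12 libraries, so the contrast between tumour and in vitro is a description and carries no test.

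The transferred and in vitro T cells came from Pmel-LC3-GFP-RFP mice, whose CD8+ T cells recognise an antigen of melanocytes and hold a fluorescent LC3 reporter of autophagosomes. Every library, RNA and ATAC alike, started from cells activated through CD3 and CD28 (antibodies at 2 µg/ml each) for 3 days in 100 IU/ml IL2, exposed to carbon monoxide (CO) for 24 h and sorted by LC3-GFP. The tumour groups were LC3-GFP positive (4 libraries) and LC3-GFP negative (4 libraries). Each was made from Vβ13+CD8+ lymphocytes sorted out of the tumour of 1 C57BL/6 mouse in which B16-F10 melanoma had grown for 12 days before transfer of either population, and was taken 15 days after transfer. The in vitro groups were LC3-GFP positive (2 libraries) and LC3-GFP negative (2 libraries) cells without transfer, and RNA was sequenced from another 2 positive and 2 negative libraries of untransferred cells. The sort after transfer used Vβ13 and CD8, which some T cells of the host also carry, and the labels name no marker that tells donor from host. Tumour, transfer, host, time since stimulation and the separate deposited peak tables all differ between the tumour and in vitro groups and cannot be told apart. A group without CO was not analysed here. Whether in vitro and RNA replicates came from different animals is not in the labels, so their spread may be technical.

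ATAC-seq reads out where the Tn5 transposase can reach DNA. Open regions are mostly gene starts, which tend to be open in many cell types, and distal elements such as enhancers, which differ more between cell states. CD8+ T cells that stay in a tumour meet antigen for long periods and are known for a state called exhaustion, marked by inhibitory receptors such as PD-1 and by lasting changes at distal elements. T cells that settle in tissue are known for a residency programme of adhesion molecules.

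Most tumour-gained regions lay away from gene starts, but 16 (2.74%) covered one. These are shown first because the start they cover is known from position, while the gene they act on was not tested. They include the starts of Xist, the RNA that coats the inactive X chromosome, Gimap1, a lymphocyte GTPase gene, Itgam, which encodes the integrin chain CD11b, Samd3, a gene of natural killer and CD8+ T cells, and Gzmc, which encodes the cytotoxic protease granzyme C. The 250 bases upstream of the first 3 of these starts follow, from RefSeq (GRCm38.p6, the assembly of mm10), 5′ to 3′ on the strand of the gene. Capitals mark motif matches. Of the 17 such windows that tumour-gained regions overlapped, 4, those of Samd3 and Gzmc among them, lie partly or wholly inside the span of their own gene, so they may hold exon bases and are not printed.
Xist, chrX:103483234-103483483, minus strand: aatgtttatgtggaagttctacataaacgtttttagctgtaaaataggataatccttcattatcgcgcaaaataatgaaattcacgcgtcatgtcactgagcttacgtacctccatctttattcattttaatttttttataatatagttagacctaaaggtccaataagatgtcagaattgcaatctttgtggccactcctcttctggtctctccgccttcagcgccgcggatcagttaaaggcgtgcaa
Gimap1, chr6:48738797-48739046, plus strand: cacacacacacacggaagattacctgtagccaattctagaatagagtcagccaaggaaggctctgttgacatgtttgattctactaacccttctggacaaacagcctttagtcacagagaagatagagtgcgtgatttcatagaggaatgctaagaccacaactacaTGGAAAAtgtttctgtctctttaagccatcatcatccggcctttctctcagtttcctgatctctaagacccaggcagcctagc
Itgam, chr7:128062390-128062639, plus strand: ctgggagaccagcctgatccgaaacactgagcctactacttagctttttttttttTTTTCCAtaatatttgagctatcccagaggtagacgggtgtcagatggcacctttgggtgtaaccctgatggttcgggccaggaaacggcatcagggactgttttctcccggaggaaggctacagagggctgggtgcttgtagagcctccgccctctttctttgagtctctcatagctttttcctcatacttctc

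The searched letters, read on both strands with no motif overlapping another in these windows, included the NFAT core TGGAAAA, which stands once in the Gimap1 window and once, as TTTTCCA, in the Itgam window. Other letters searched were the T-box core AGGTGTGA, the RUNX core TGTGGTT and the cyclic AMP response element TGACGTCA. The Xist window holds none of the 10 motifs searched, which says only that these letters are not in these 250 bases. Of 32851 RefSeq promoter windows of the same length, 5.93% hold the NFAT letters, 1.12% the T-box letters, 4.40% the RUNX letters and 1.55% the response element. Some of the 17 promoter windows that tumour-gained regions overlapped were of the same gene. Of the 17, 3 held NFAT, 2 T-box, 3 RUNX, 1 the response element and 3 the AP-1 letters TGANTCA, against 6.75% of all windows for AP-1. The AP-1 count includes overlapping windows of the lncRNA Gm31814 that hold the same match, so that site is counted more than once. The other 4 motifs (NR4A, AAAGGTCA; TCF1, CTTTGAA; KLF, GGGCGTGG; ATF4, TGATGNAA) and ETS (CCGGAA) had no match among the 17. A match is a description of letters and not of binding. The remaining starts belong to lncRNAs and to Rbm44. The upstream windows of lncRNAs Gm43305 and Gm42031, on chromosomes 14 and 8, were identical at 246 of 250 bases (98.4%), so reads from these copies may not be assignable to one of them.

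Apart from these starts, tumour-gained regions were mostly distal, and their width and signal lay between those of all merged regions and those of regions open in all 12 libraries. Their width had a median of 1206 bp (552 to 3392 bp), against 1005 bp for all merged regions and 1768 bp for regions open in all 12 libraries. They covered a gene start in 2.74% of cases, against 52.85% of the 20064 regions open in all 12 libraries and 14.29% of all merged regions. The share was 2.80% among the 4504 regions open in all 4 in vitro libraries and no tumour library, so a distal position was not particular to gain. The median distance to the nearest start was 21610 bp, and 357 regions (61.2%) lay in a gene or the 2 kb upstream of it. The peaks' median fold enrichment over local background was 5.40 and their median pileup, the read depth at the summit, was 30.0, against 4.56 and 28.0 at all merged regions and 6.22 and 71.0 at regions open in all 12 libraries. These are the caller's own values per library. Just outside the rule, 446 regions had 6 tumour libraries and no in vitro one, with a median fold of 4.86 and pileup of 22.0, and 355 had 7 or 8 tumour libraries and 1 in vitro one, with 5.19 and 33.5.

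Signal was compared between libraries only as a percentile, the position of a region's strongest peak among the same 20972 regions that all 8 tumour libraries share, ranked within one library. By fold enrichment the mean percentile over libraries had a median of 34.59 across the 583 regions (quartiles 16.52 and 53.97, range 0.04 to 97.85). By pileup the median was 15.38. Only 5 regions had a mean above the 90th percentile by fold, and 98 lay below the 10th. Across regions both rankings ran against each other (Spearman's rho -0.34 over 583 regions, which share libraries). Regions at most 1 kb from an in vitro region (85, or 14.6%) had a median of 14.72 by fold and 22.52 by pileup. The 141 regions more than 10 kb away had 52.44 and 9.16. Those beside chromatin that was already open thus had more reads and less contrast with their surroundings, and the isolated ones fewer reads and more contrast. The median distance to an in vitro region was 4238 bp.

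The libraries were not alike. Tumour negative replicate 2 had 55171 peaks, against 27406 to 41435 in the other 7 tumour libraries and 49634 to 63761 in vitro. Of its regions, 14528 (26.6%) were found in no other library, against 53 to 1101 in the other tumour libraries, and only 253 of the 583 tumour-gained regions (43.4%) had a peak in it, against 521 to 582. It alone accounts for 330 of the 419 regions with a missing library, and tumour positive replicate 1, the library with fewest peaks, for 62. Starts of 14 of 14 macrophage, monocyte and dendritic cell markers had a peak within 1 kb in negative replicate 2, against 8 or 9 in the other tumour libraries and 8 to 10 in vitro. For neutrophil markers the counts were 4 of 8, against 0 or 1 and 1 or 2. For fibroblast and endothelial markers they were 4 of 8, against 1 or 2 and 3, and for natural killer and innate lymphoid markers 6 of 10, against 2 to 4 and 3 to 5. Melanoma markers were open at 3 to 5 of 9 starts in the tumour libraries and 4 or 5 in vitro, and B cell markers at 2 to 5 of 10, against 8 or 9. Starts of CD8+ T cell identity genes were open at 15 of 15 in all 8 tumour libraries and at 14 or 15 in vitro, as the label says. The part of other cells in the tumour-gained regions was not tested. With negative replicate 2 left out, 494 of the 583 regions had a peak in all 7 remaining tumour libraries.

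**Figure D1:**
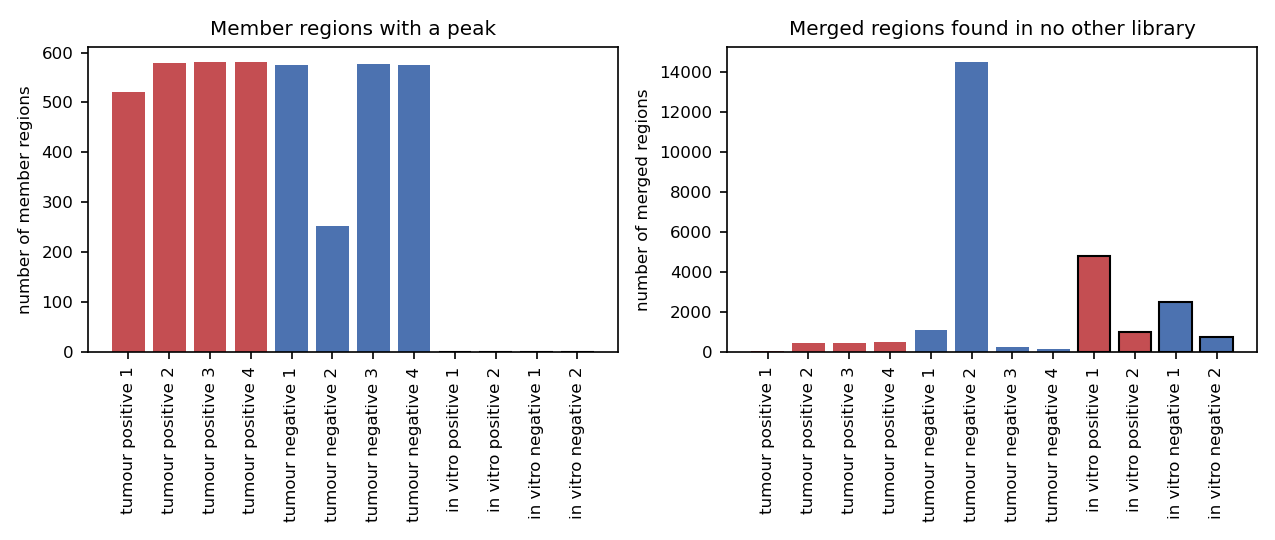
Number of tumour-gained regions with a peak in each ATAC library (left) and number of merged regions found in that library alone (right). LC3-GFP positive libraries are red, negative ones blue and in vitro bars are outlined in black; the in vitro count on the left is 0 by the rule. Tumour negative 2 has 253 tumour-gained regions and 14528 regions of its own.

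The most concentrated group lay on the X chromosome, at loci tied to X inactivation. In female cells one X is silenced, Xist RNA is made from it, and the lncRNA loci Firre and 4933407K13Rik, which spans the mouse Dxz4 repeat, anchor its folding. The X held 30 tumour-gained regions (5.15%), against 2.33% of regions open in all 12 libraries, 1.55% of those open only in vitro and 2.19% of all merged regions. Of these 30, 11 lay in Firre, 5 in 4933407K13Rik and 1 over the Xist start. Firre had more tumour-gained regions than any other gene, and 4933407K13Rik came next. Together with 1 region in Gm35612, those at Firre formed a run of 12 in 74.2 kb, and those at 4933407K13Rik a run of 5 in 21.5 kb. No other cluster, taken as regions within 50 kb of each other, had more than 2. Of the 17 regions at the 3 loci, 14 had a peak in all 8 tumour libraries, against 150 of the 566 others (26.5%), so they were also called in the library that stood apart.

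Counting every peak over a gene and 2 kb either side, Firre had 13, 16, 15 and 17 peaks in tumour positive libraries and 18, 13, 15 and 14 in tumour negative ones, against 1 and 1 in the in vitro positive and 2 and 1 in the in vitro negative libraries. 4933407K13Rik had 7, 6, 7 and 7 peaks in tumour positive and 10, 8, 8 and 8 in tumour negative libraries, against 1 and 2 in in vitro positive and 1 and 1 in in vitro negative ones. Every tumour library thus had at least 13 peaks at Firre and no in vitro library more than 2. The region over the Xist start (chrX:103481015-103484278, which contains the sequence above) had pileups of 42, 66, 59 and 64 in tumour positive and 76, 70, 74 and 58 in tumour negative libraries. Its percentile by fold was 14.71, 8.39, 7.81 and 7.19 in positive and 32.51, 29.68, 14.74 and 14.67 in negative libraries. At the 3 loci the median percentile was 12.01 by fold and 36.22 by pileup, so their peaks had more reads but stood less above their surroundings than most tumour-gained regions.

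Fewer genes of the Y chromosome had a peak in 6 of the 8 tumour libraries than in vitro. Of Ddx3y, Uty, Kdm5d and Eif2s3y, which are present only in males, 0, 2, 4 and 2 had a peak in tumour positive libraries and 3, 0, 3 and 4 in tumour negative ones, against 4 in each in vitro library. In RNA of untransferred cells Xist stood at 2695 and 2652 CPM (counts scaled by library size) in positive and 1866 and 2607 CPM in negative libraries. Ddx3y was also read, so the pools held both kinds of transcript. Firre RNA differed in the other direction, at 48.0 and 52.0 CPM in positive and 57.6 and 63.6 CPM in negative libraries (log2 -0.28). The labels give the sex of neither donors nor hosts. A change of chromatin at these loci and a change in the share of female cells cannot be told apart.

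**Figure D2:**
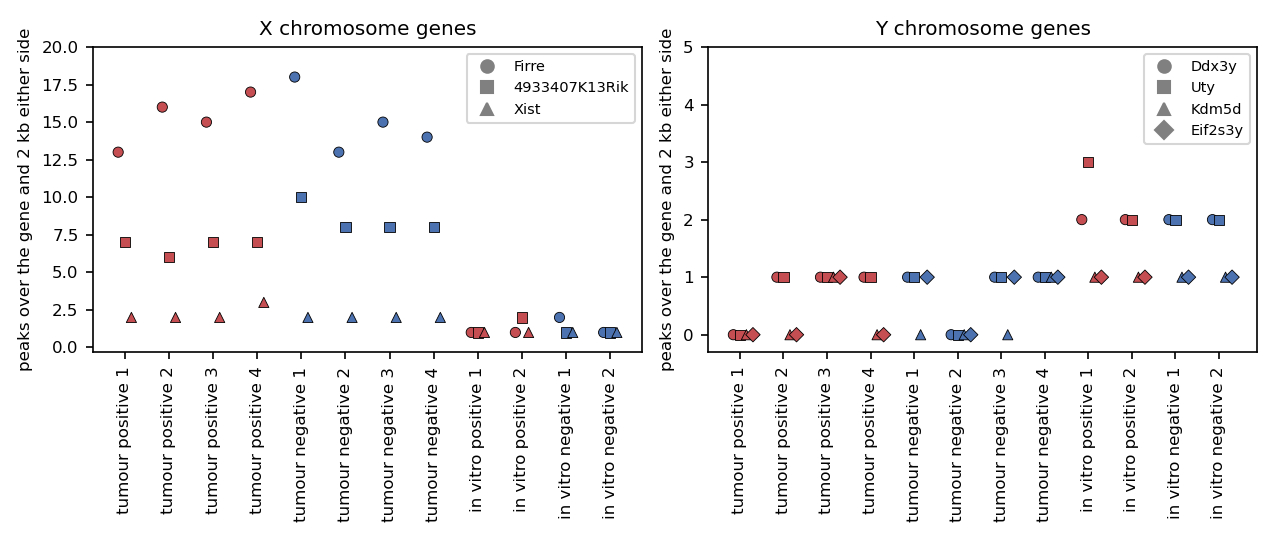
Peaks over each gene and 2 kb either side, by ATAC library, for X-linked Firre, 4933407K13Rik and Xist (left) and the Y-linked Ddx3y, Uty, Kdm5d and Eif2s3y (right). Red points are LC3-GFP positive and blue points negative libraries. Firre has 13 to 18 peaks in tumour libraries and 1 or 2 in vitro, while all 4 Y genes have a peak in each in vitro library and 0 to 4 of them in tumour libraries.

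Genes of T cell function were then read from 19 lists. A list gene counted if a tumour-gained region lay in its body or 2 kb upstream, or had its nearest coding start there within 50 kb. This held for 32 of 313 list genes (10.2%), with 35 regions, 21 of them in the gene body, against 423 of 21900 coding genes (1.93%). Among genes whose start was open in all 12 libraries it held for 25 of 205 list genes (12.2%), against 300 of 11012 coding genes (2.72%). The link used for all coding genes was narrower: a nearest start counted only where the region lay in no coding gene. Regions inside a neighbouring gene, as for Prf1 and Ddit3, therefore raised the list shares alone, and the shares are not like for like. The lists were also chosen with earlier results of these data known, so these shares are a description and not a test. The starts of the genes themselves were mostly open before transfer: of 326 genes at tumour-gained regions with a known start, 233 (71.5%) had a peak within 1 kb of it in all 4 in vitro libraries, against 49.2% of all 29479 genes. By list, genes with a region numbered 7 of 21 for tissue residency, 5 of 22 for memory and stemness, 5 of 24 for effector function, 3 of 16 for costimulators, 3 of 18 for trafficking receptors, 3 of 26 for cytokines with their receptors, 3 of 28 for inhibitory receptors with exhaustion factors and 2 of 21 for AP-1, ATF and immediate early factors. The lists for autophagy (23 genes), for glucocorticoid, hypoxia and nuclear receptors (20) and for CD8+ T cell identity (15) had none, and that for PERK and the integrated stress response had 1 of 20, Ddit3. Of the lists for other cell types, that for macrophages had 1 gene of 17 (Itgam), that for natural killer cells 1 of 10 (Tyrobp) and that for CD4+ T cells 1 of 8 (Zbtb7b), and those for melanoma (12 genes), B cells (10), neutrophils (8) and stroma (12) had none.

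Among inhibitory receptors and exhaustion factors, the region nearest to Pdcd1, the gene of PD-1, had the highest mean percentile by fold of all list genes. It lay 38.79 kb from the Pdcd1 start, outside any gene (chr1:94091344-94092466), and 11608 bp from the nearest in vitro region. Its percentile by fold was 84.21, 96.21, 96.27 and 90.63 in tumour positive and 87.18, 95.21 and 91.08 in tumour negative libraries, with no peak in negative replicate 2. All 7 values lay in the upper part of the ranking by fold, and the groups overlapped. By pileup the mean percentile of this region was only 24.96. The list's other genes were Ikzf3, which encodes the lymphoid factor Aiolos, with 2 regions in its body, and Irf8, an interferon regulatory factor gene, with 1. The Irf8 region (chr8:120751719-120752891) stood at 44.52, 41.25, 73.51 and 41.72 in positive, against 5.24, 10.44 and 10.32 in negative libraries with a peak, so these groups did not overlap. Havcr2, Lag3, Tigit, Ctla4, Entpd1, Tox and the Nr4a genes had no tumour-gained region, and peaks lay within 1 kb of 24 to 28 of the list's 28 starts in tumour libraries and of all 28 in vitro.

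For tissue residency, regions were linked to the integrin genes Itga1 (2 regions) and Itga4 and to Cdh1, which encodes the adhesion protein E-cadherin. Others were linked to Il7r, the receptor chain for interleukin 7, and Rgs2, a regulator of G protein signalling. The last were linked to the orphan receptor gene Gpr34 and to Litaf, a lysosomal membrane protein gene. Those for Itga4, Il7r and Gpr34 lay outside the gene, 23.56, 33.93 and 14.42 kb from its start. The Itga4 region covered the start of the lncRNA Gm35813, and the Gpr34 region lay in Cask. The Itga1 region at the lncRNA Gm41075 lay 5.24 kb from the Itga1 start. By fold, the Litaf region (chr16:10968879-10970719, in the gene body) stood at 66.79, 90.84, 95.54 and 92.85 in positive, against 17.92, 0.63, 60.00 and 47.06 in negative libraries. Every positive library was above every negative one by this rank, while pileups overlapped. The Cdh1 region (chr8:106641836-106644051) varied little, at 37.42, 37.13, 31.55 and 36.87 in positive and 33.48, 36.14, 28.88 and 30.37 in negative libraries. The Rgs2 region lay 28.79 kb from its gene and ran from 14.99 to 82.12 in positive and from 14.23 to 95.68 in negative libraries.

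Effector genes with a region were Ifng, Prf1, Gzmc, Klrg1 and Zeb2. The region near Ifng, the interferon gamma gene, lay 5.09 kb from its start (chr10:118435007-118435960) and stood at 33.95, 79.32, 26.19 and 53.28 in positive and 84.32, 56.18, 78.46 and 57.95 in negative libraries. The region over the Gzmc start had 58.85, 40.34 and 42.39 in positive libraries with a peak and 61.53, 10.00, 73.82 and 58.94 in negative ones. Both sets of values overlapped between groups. For Prf1, the perforin gene, the region lay in the neighbouring gene Pald1 at 29.41 kb and stood at 37.39, 29.57, 53.92 and 41.33 in positive, against 23.54, 7.93 and 12.56 in negative libraries. The region in Klrg1, an inhibitory receptor gene of effector cells, ran from 8.36 to 64.25 in positive and 26.70 to 80.08 in negative libraries.

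Receptors for costimulation and cytokines formed the next groups. The region in Tnfrsf9, the gene of the costimulator 4-1BB (chr4:150939383-150940646), stood at 57.45, 43.68, 60.91 and 65.10 in positive, against 25.20, 10.18, 30.86 and 31.10 in negative libraries. That in Tnfrsf8, the CD30 gene, stood at 21.74, 19.31, 39.63 and 32.64, against 16.02, 7.67, 13.02 and 13.94. By rank of fold enrichment, both regions were higher in all 4 positive libraries than in any negative one. Their pileups, which also vary with read depth, overlapped between groups. Il12rb2, a chain of the interleukin 12 receptor, had a region in its body at 24.79, 29.55, 18.08 and 16.67 in positive, against 7.30, 7.85, 7.77 and 6.05 in negative libraries. Its other region lay 23.11 kb from the start and overlapped between groups, at 48.21, 80.35, 92.47 and 82.85 in positive and 42.92, 29.43, 56.25 and 29.78 in negative libraries. The region in Stat5b, which encodes a transcription factor downstream of several interleukin receptors, was among the 10 strongest by fold with all libraries. It stood at 84.03, 84.48, 75.22 and 86.57 in positive and 78.03, 46.99, 70.08 and 85.23 in negative libraries.

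At genes of memory and trafficking the regions had low percentiles by fold. Those at Cd28, a costimulatory receptor gene, Klf3 and Foxp1, transcription factor genes of quiescent T cells, and Ccr7, the gene of the lymph node homing receptor, had means of 0.75, 1.24, 6.04 and 3.55. Their mean percentiles by pileup were 50.47, 50.42, 53.45 and 46.37, so these places had many reads over a local background that was also high. Ifngr1 (0.30 by fold and 54.69 by pileup) and Zbtb7b (0.52 and 40.77) were of the same kind. All of these lay close to chromatin open before transfer. The nearest in vitro region was 507 bp away at Cd28, 794 bp at Ifngr1, 1101 bp at Klf3 and 1302 bp at Zbtb7b. At Foxp1 and Ccr7 the distance was 2504 and 2721 bp. Other trafficking genes with a region were Ccr4 and Cd44, at means of 30.50 and 6.93 by fold. The Ccr7 region lay outside any gene, 17.93 kb from the Ccr7 start, and the Ccr4 region in Glb1, 33.25 kb from the Ccr4 start. On the list of AP-1, ATF and immediate early factors, there were a region 15.34 kb from Jun, an AP-1 subunit gene, with a mean of 61.05, and one in Nfkb1, an NF-κB subunit gene, with 4.03. The Ddit3 region, in the neighbouring gene Mars1, had 35.24; Ddit3 encodes the stress factor CHOP.

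**Figure D3:**
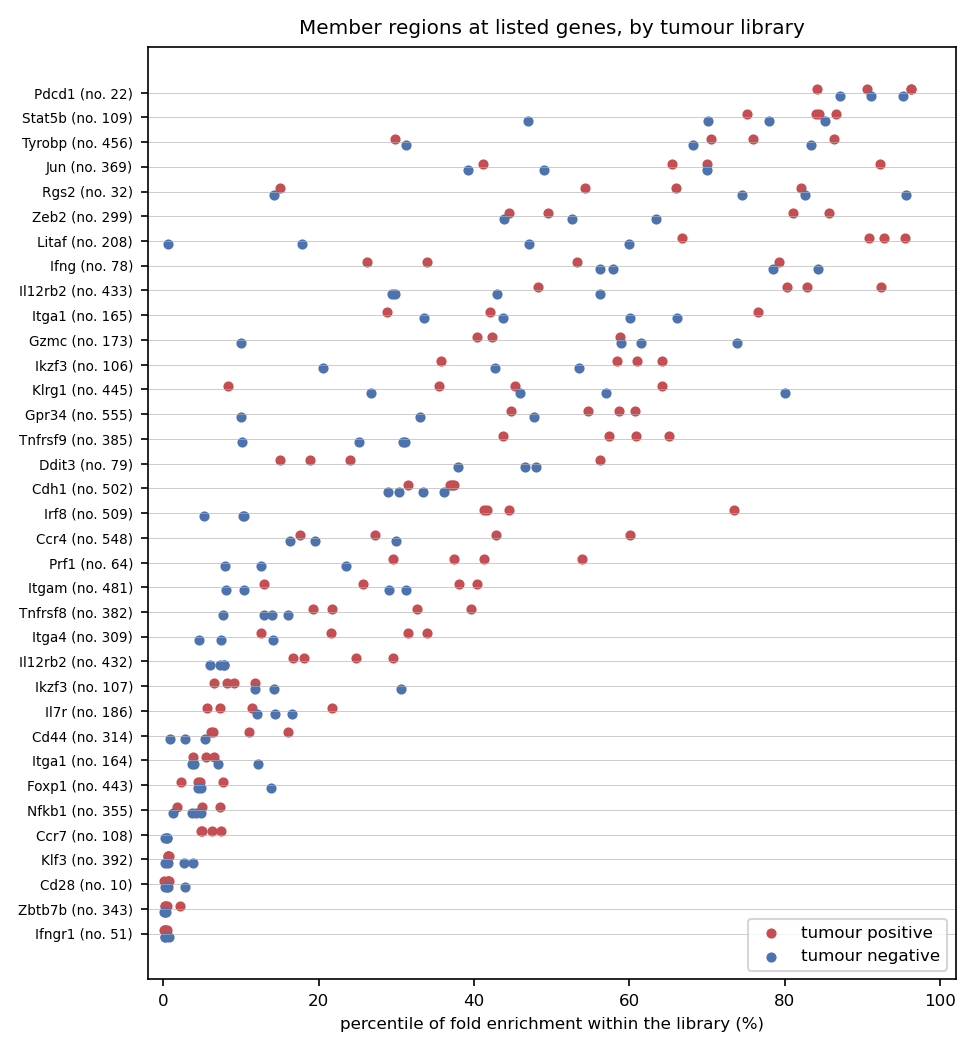
Percentile by fold enrichment, within each tumour library, of the 35 tumour-gained regions at list genes, ordered by mean; number in brackets is the region's running number. Each point is 1 library, red for LC3-GFP positive and, just below, blue for negative; a library without a peak has no point. Pdcd1 is at the top with 84.21 to 96.27. Points overlap for 27 of the 35 regions. They do not overlap, with red higher, for 8: those at Prf1, Ccr7, Litaf, Cd44, Tnfrsf8, Tnfrsf9 and Irf8 and 1 of those at Il12rb2. Of these, 4 have a peak in all 8 libraries, as do 9 that overlap. With all 8 libraries, 3.92% of all shared regions and 11.0% of tumour-gained ones separate this way. The other 4 have 7 libraries, as do 18 that overlap. Without negative replicate 2, 6.71% of all regions shared by the remaining libraries and 14.0% of tumour-gained ones separate this way.

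The 10 strongest regions with a peak in all 8 tumour libraries, by mean percentile of fold enrichment, were mostly outside T cell lists. They lay at the start of the lncRNA Gm43305 (91.73), near Tab2 (84.19), which encodes an adaptor of NF-κB signalling, near the selenoprotein synthesis gene Sephs1 (83.78), in Cdk5rap1 (83.32), in Gm35612 beside Firre (82.60), in Slc35f3 (78.80), near the thiamine transporter gene Slc19a2 (78.49), in Dcun1d4 (77.72), at Gm38933 10.72 kb from the chemokine gene Ccl6 (76.97) and in Stat5b (76.33). By pileup the mean percentiles of these 10 were low to moderate, from 14.54 in Cdk5rap1 to 38.70 in Stat5b. The Gm43305 region, whose upstream window nearly matches that of Gm42031, stood at 98.72, 94.43, 96.75 and 98.09 by fold in positive and 98.25, 51.81, 97.62 and 98.14 in negative libraries. Negative replicate 2 gave the lowest value there, while the other 7 lay within a narrow band. Of 354 genes with a region in them or 2 kb upstream, 272 were coding and 82 lncRNAs, and 22 genes had more than 1. After Firre and 4933407K13Rik, the naming rule took Gm41770 and Rab27b, which overlap, Xylt1, Gm13264, Poc1a, Gm51644 and Srgap2, which overlap, and Phldb2, with 2 regions each. Rab27b encodes a GTPase of granule release, and Srgap2 a regulator of the actin skeleton. Runx1, a transcription factor gene of T cell development, also had 2, chosen for mention after its values were seen.

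The study's own contrast, LC3-GFP positive against negative, was not used to choose the regions and could be tested on the 164 regions with a peak in all 8 tumour libraries. Their median percentile by fold enrichment was 26.4, 41.4, 39.4 and 43.2 in positive and 25.5, 24.0, 32.5 and 31.6 in negative libraries. The means were 37.6 ± 7.63 and 28.4 ± 4.30 (SD, n = 4 each), a difference of 9.20 that did not pass a two-sided exact permutation test over the 70 splits of 8 libraries (p = 0.0857, adjusted over 3 measures 0.1286). By pileup the means were 20.7 ± 1.94 in positive and 18.2 ± 5.49 in negative libraries, a difference of 2.47 (exact permutation p = 0.5714, adjusted 0.5714). By peak length they were 18.9 ± 0.343 and 13.8 ± 3.39, a difference of 5.15. All 4 positive libraries lay above all 4 negative ones by length (exact permutation p = 0.0286, the smallest that 70 splits allow), and this did not pass adjustment (0.0857). Without negative replicate 2 the pileup difference was -0.26. Without positive replicate 1 the fold difference was 12.94 (exact permutation p = 0.0286), and with only peaks at a -log10 q of 5 or more it was 5.18 (exact permutation p = 0.3714).

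**Figure D4:**
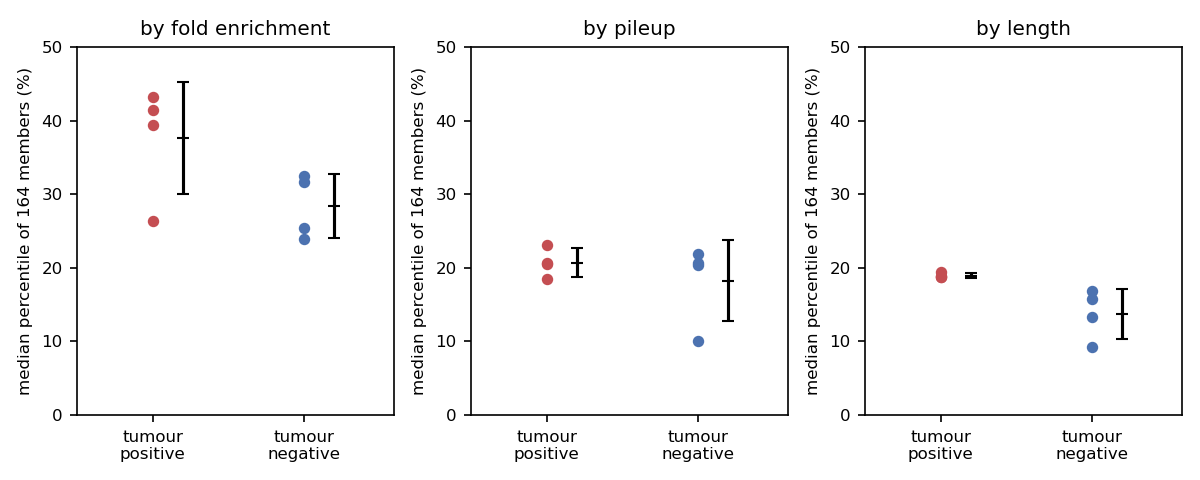
Median percentile of the 164 tumour-gained regions with a peak in all 8 tumour libraries, by fold enrichment, pileup and peak length, each point 1 library, with mean and SD beside them (n = 4 each). LC3-GFP positive libraries (red, left) and negative ones (blue, right) overlap by fold enrichment and by pileup and not by length.

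Region by region, limma on normal scores of the ranks over all 20972 shared regions called 0 of the 164 at an adjusted p under 0.05, where 0.0238% of all shared regions were called (5). At an unadjusted p under 0.05 there were 34 of 164 (20.7%), 29 higher and 5 lower in positive libraries, where 12.6% of all shared regions lay under it. With pileup in place of fold enrichment limma called 4 of 164, where 2.45% were called overall. Every positive library ranked above every negative one for 18 of the 164 (11.0%), where 3.92% of all shared regions did, and the reverse held for 4 (2.44%), where 4.46% did. With negative replicate 2 set aside the counts were 69 of 494 (14.0%), where 6.71% did, and 31 (6.28%), where 6.68% did. The region with the smallest adjusted p lay in Mpzl3 (chr9:45062359-45063379), a gene of an immunoglobulin-domain membrane protein. It stood at 58.79, 43.06, 64.23 and 48.88 in positive, against 16.77, 13.40, 6.86 and 11.30 in negative libraries (limma adjusted p = 0.0623), and was chosen for mention after its values were seen.

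RNA of the cells before transfer shows how genes at tumour-gained regions were transcribed in either population. Of the 354 genes, 234 were tested, with a median level of 49.6 CPM, against 32.0 CPM over all 12022 genes tested, and 184 had over 10 CPM. Library totals ran from 14567540 to 17557628 estimated counts. In edgeR's quasi-likelihood fit, with p-values adjusted by Benjamini-Hochberg, 84 of the 234 (35.9%) were called, where 25.0% of all genes were. There were 67 lower in positive cells (28.6%), where 13.6% of all genes were lower, and 17 higher (7.3%), where 11.3% were. Their median log2 fold change was -0.083, against 0.002 over all genes. Scaled by library size and not by TMM, 55 were lower and 33 higher, where 10.0% and 18.6% of all genes were, and DESeq2 called 49 lower and 8 higher, where 8.03% and 5.76% were. Of the 67 lower genes 42 also passed in DESeq2 and with any 1 library left out, and of the 17 higher genes 3 did. Without positive replicate 1 the count was 51 (21.6%), where 14.0% of all genes were called. Bulk RNA cannot tell fewer cells of a type from less RNA per cell.

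Among the largest falls, Samd3, which has a tumour-gained region over a start, stood at 1.12 and 2.26 CPM in positive, against 8.67 and 8.03 CPM in negative libraries, a log2 change of -2.33 ± 0.27 (SE). In tumour libraries that region was at percentiles 30.01, 49.85, 31.95 and 47.33 in positive and 65.60, 18.80, 41.29 and 28.06 in negative cells, which overlap. Pde2a, a cyclic nucleotide phosphodiesterase gene, stood at 7.19 and 6.47 CPM, against 27.0 and 34.6 CPM (log2 -2.17). Tspoap1, whose start lies 0.18 kb from a tumour-gained region (chr11:87758378-87760823) that is also within 2 kb of Mir142, a microRNA gene of blood cells, stood at 26.5 and 24.7 CPM, against 106 and 81.3 CPM (log2 -1.87). That region was lowest of all by fold (0.04) and had a mean pileup percentile of 78.03. Itgb3, an integrin chain gene, stood at 44.8 and 40.2 CPM, against 96.5 and 107 CPM (log2 -1.26). The lncRNA 2610035D17Rik and Gcnt2, a glycosyltransferase gene, fell by 1.28 and 1.00 on the log2 scale. Camk2b (log2 -1.72) and the lncRNA Lncpint (log2 -1.55) had means of 0.537 and 0.558 CPM in positive, against 1.76 and 1.66 CPM in negative cells, and were called by edgeR (adjusted p = 0.0151 and 0.0202) and not by DESeq2 (0.0909 and 0.126).

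Rises were small. Inpp4b, a phosphoinositide phosphatase gene, stood at 456 and 460 CPM in positive, against 361 and 376 CPM in negative libraries (log2 0.31). Themis, a gene of T cell receptor signalling, stood at 734 and 764 CPM, against 615 and 639 CPM (log2 0.26), and Arl6ip1 at 749 and 766, against 621 and 651 CPM (log2 0.25). Those 3 are the ones that passed in every refit. Nhsl2 (log2 0.63), Map3k20 (0.49), Baz2b (0.33) and Atp5l (0.27) were called, and each lost the call in at least 1 refit. Xist was called by edgeR at a log2 change of 0.26 (adjusted p = 0.0499) and not by DESeq2 (adjusted p = 0.57), and without negative replicate 1 its change was 0.035.

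**Figure D5:**
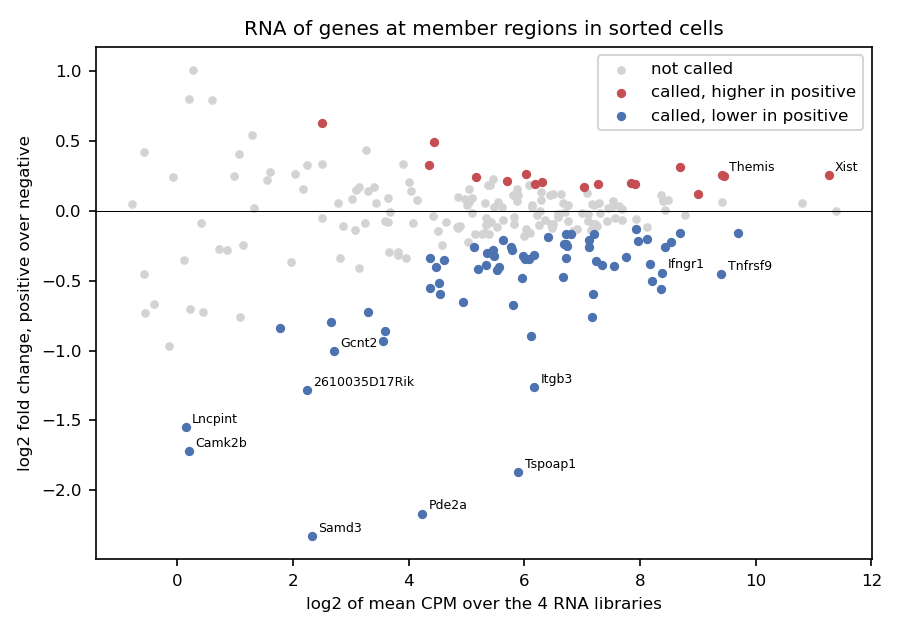
RNA of the 234 tested genes at tumour-gained regions in cells before transfer, as log2 fold change of LC3-GFP positive over negative against log2 mean CPM (n = 2 libraries each). Genes called by edgeR are red where higher and blue where lower in positive cells; 67 are lower and 17 higher, with Samd3 lowest at -2.33.

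Of the 32 list genes with a region, 30 were tested, and 12 were lower and 3 higher in positive cells by edgeR, with a median log2 change of -0.209, where 13.6% of all genes tested were lower, 11.3% higher and the median was 0.002. The lower ones with the largest changes were Prf1, at 182 and 185 CPM in positive, against 396 and 385 CPM in negative libraries (log2 -1.09, adjusted p = 1.88e-11), Ddit3 (log2 -1.02), Cdh1 (-0.73) and Litaf (-0.68). Tnfrsf9 stood at 567 and 581 CPM, against 764 and 803 CPM (log2 -0.45, adjusted p = 8.74e-07), and Ifngr1, Jun, Zbtb7b, Ikzf3, Gzmc, Il12rb2 and Irf8 were also lower, with log2 changes of -0.51 to -0.21. Gzmc lost its call without positive replicate 1 (edgeR adjusted p = 0.123) and Irf8 without positive replicate 2 (edgeR adjusted p = 0.152). The higher ones were Itga4 (log2 0.56), Ccr4 (0.43) and Ccr7 (0.36). The regions linked to these 3, like those for Prf1, Ddit3 and Jun, lay outside the gene. Pdcd1 RNA stood at 61.6 and 58.3 CPM in positive and 59.9 and 62.0 CPM in negative libraries (log2 -0.02, edgeR adjusted p = 0.835), and Cd28, Stat5b and Il7r were also not called.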

How the data were processed

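Per the submitters' processing notes, ATAC reads went through Partek, cutadapt, BWA and MACS2 on mm10, and RNA reads through Partek, STAR and DESeq2. Tool versions, Tn5 shifting and strandedness are not given in the sources used here. Per the file headers, each deposited ATAC peak carries a length in bp, a pileup signal, a fold enrichment ratio over local background, and -log10 of the p-value and q-value (smallest -log10 q 1.302), called in each library separately. Read depth of ATAC libraries is unknown, and peak number stands in for it. The deposited RNA table holds estimated counts, which were rounded.

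Regions were assigned to coding and lncRNA genes of RefSeq GRCm38.p6. Without a strand (all but 29479 of 34631 genes), a gene was extended at each end. Exon, intron and UTR annotation was not used. Ranks were tested with limma 3.58.1 and with exact permutations, RNA with edgeR 4.0.16 (TMM, filterByExpr) and, as an alternative, DESeq2 1.42.0, at a threshold of 0.05. Levels in CPM use TMM-scaled library sizes. Both fits were tested on simulated data. Reads shared by paralogs or overlapping genes make their counts uncertain.

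Members, lists and tests were chosen with earlier results of these data known. Named were regions at list genes, with values for at most 4 a list, the 10 strongest regions, the 10 genes with most regions, the 8 largest RNA changes in each direction, regions called by limma and those over promoters. Further regions and genes are named where a group is counted out. Same-numbered libraries did not deviate together. Alternatives were other rules for members, stricter peaks, other scalings, other gene links, left-out libraries and a replicate block.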

Additional observations from a re-analysis of the deposited data

Results flagged for a closer look

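Within groups of 4 tumour libraries, 60 sets of values were examined for a sample far from the other 3, by Dixon's criterion, and 9 were found. Chance alone gives about 1 in 20 sets.

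Tumour negative replicate 2 stood apart in the number of tumour-gained regions with a peak (253) and in regions found in no other library (14528). Tumour positive replicate 1 stood apart in its number of peaks (27406) and in tumour-gained regions with a peak (521). Counts of tumour-gained regions per library depend on the rule that chose the regions, so the chance rate does not apply to those flags. The other flags concern percentiles by fold enrichment at list genes. At Cd28, negative replicate 2 had 2.80, where the other 3 negative libraries had at most 0.61. At Litaf, positive replicate 1 had 66.79, below the other positive libraries, and at Zbtb7b it had 2.15, above them. At Cdh1, positive replicate 3 had 31.55, below the others, and at Irf8 it had 73.51, above them. Of these, the first concerns the library with fewest tumour-gained regions, and those at Litaf and Zbtb7b the library with fewest peaks.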

How the results depend on the processing

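The number of tumour-gained regions followed the rule. It was 164 with 8 of 8 tumour libraries and 1029 with 6 or more. With 1 library left out and the rule relaxed to at most 1 missing tumour library it ran from 595 to 958, the highest without tumour negative replicate 2. Stricter peaks or a merge at 100 bp gave 583 to 654. The percentile differences between positive and negative tumour libraries kept their sign in all alternatives by fold enrichment and by length. The fold difference with 1 library left out ran from 7.35 to 12.94. It was 5.18 (exact permutation p = 0.3714) with peaks at a -log10 q of 5 or more. With 1 library left out the length difference ran from 3.63 to 6.16, with exact permutation p at 0.0571 when any positive replicate was left out. By pileup the difference ran from -0.26 to 3.67, the lowest without tumour negative replicate 2. With that library set aside and the 494 regions of the 7 others ranked, chosen after seeing the data, the fold difference was 6.29 (exact permutation p = 0.1429) and the pileup difference 4.09 (exact permutation p = 0.0286). limma called 4 regions by pileup, 1 on the percentile scale and 0 in the other alternatives. RNA calls at genes of tumour-gained regions ran from 51 (21.6%, where 14.0% of all genes were called) without positive replicate 1 to 98 (41.9%, where 28.1% were) without negative replicate 2. DESeq2 called 57 (24.3%, where 13.8% were). There were 24 calls (38.1%) for genes of regions with all 8 libraries and 5 of 10 for starts within 1 kb, smaller sets by construction, where 25.0% of all genes were called. Outside the X chromosome, an alternative chosen after seeing the data, they were 80 (35.2%).

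Same-numbered tumour libraries had correlations of deviations of 0.035, -0.033, 0.085 and -0.02 and the RNA ones 0.038. With so few libraries these values do not settle whether replicate numbers pair the samples. With a replicate block the length difference was 5.15 (exact permutation p = 0.125, the smallest that 16 sign sets allow), limma called 0 regions and edgeR 99 genes (42.3%, where 29.7% of all were called). Of 31 called genes named here, 22 kept their call in DESeq2 and in each fit with 1 library left out. ATAC depth is unknown, so a missing peak may reflect depth, and 4 libraries a group limit what the permutation tests can reach.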
